A study of Mus musculus with 2 samples.

Results

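The 10 genes described here, of 32285 in the count tables, encode 2 transcription factors of the antioxidant response and 8 enzymes that neutralise oxidants or supply the glutathione and thioredoxin systems. They were chosen by symbol under a rule that used no measured value, though with earlier results of these data known. Nfe2l1 and Nfe2l2 encode the factors NRF1 and NRF2, which pair with small MAF proteins and bind a short DNA motif, the antioxidant response element, near genes of detoxification and redox balance. NRF2 is held at a low level by KEAP1, which hands it to a ubiquitin ligase, and is released when oxidants or electrophiles modify KEAP1. NRF1 sits in the endoplasmic reticulum membrane and is known for driving proteasome genes, a role described in brown fat, whose adipocytes burn fuel in mitochondria to make heat.

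Nuclei of interscapular brown adipose tissue (BAT) from 8-week-old mice were measured by single-nucleus RNA-seq in 1 WT library and 1 KO library. WT mice carried the floxed Srsf1 alleles (Srsf1 flox/flox) without Cre, and KO mice carried the same alleles with Adipoq-Cre, in which the adiponectin promoter drives the recombinase in mature adipocytes. Srsf1 encodes a splicing factor, and the study asked what its loss in fat cells does to brown fat. How many mice were pooled in a library is not given in the sources used here, and with 1 library per genotype no difference between WT and KO could be tested. Intervals are 95% and cover counting error alone.

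Classes of nuclei were called from sums of marker genes: 4544 WT and 1815 KO adipocyte nuclei, 379 and 1876 of adipose stem and progenitor cells (ASPCs), 2739 and 1161 endothelial, 579 and 3771 immune and 321 and 182 mural nuclei, while 4126 and 2542 nuclei received no class. All markers of these 5 classes, among them Plin1 and Cidec for adipocytes and Flt1 and Cdh5 for endothelial cells, were highest in their own class in both libraries, as the rule that used them favours. The libraries shared 52 barcode sequences, and leaving these nuclei out moved none of the counts of genes past 2-fold given below for adipocyte nuclei. Srsf1 had 6977 UMIs in WT and 793 in KO adipocyte nuclei, which is 187 and 59.2 UMIs per 1000000 UMIs of the class (CPM). It was also lower in KO in every other class. WT and KO levels were 142 and 85.9 CPM in endothelial nuclei and 118 and 84.0 in ASPCs. They were 108 and 64.4 in immune and 146 and 92.6 in mural nuclei. The libraries differed in mitochondrial RNA and in adipocyte RNA found in other classes. The median mitochondrial share was 1.10% of UMIs in WT and 0.0489% in KO nuclei. Ucp1, the uncoupling protein of brown adipocytes, had 855 CPM in WT endothelial nuclei and 27.8 in KO ones, against 1820 and 63.2 CPM in adipocyte nuclei, so that it was found outside adipocytes in both libraries. Each level is therefore also given relative to the endothelial nuclei of the same library, a cell type not known to transcribe Adipoq. The endothelial level itself held adipocyte RNA: the adipocyte markers summed to 52.8 per 10000 UMIs in WT and 28.4 in KO endothelial nuclei, against 98.5 and 89.5 in adipocyte nuclei.

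The promoters of the genes are shown first, because the antioxidant response element is the sequence through which NRF1 and NRF2 are known to act. Its core, TGACNNNGC, was searched on both strands (GCNNNGTCA on the other) in RefSeq promoters of GRCm38.p6, from 250 bases before to 50 bases after a start site. Of the 10 genes, 8 matched an entry and 5 of them held the core in at least 1 promoter, against 14.0% of 27025 genes. By promoter it was 5 of 14, against 12.4% of 32851. The genes were listed as part of this pathway, so the comparison is not a test. Gclc and Hmox1 had no entry. Capitals mark the core. The 250 bases before the start site are printed for Gsta3 (chr1:21240335-21240584, plus strand) and Gclm (chr3:122245307-122245556, plus strand), and 29 bases around the core for Nfe2l2 (chr2:75704885-75704913, minus strand), Txnrd1 (chr10:82859104-82859132, plus strand) and Sod1 (chr16:90220696-90220724, plus strand).
Gsta3: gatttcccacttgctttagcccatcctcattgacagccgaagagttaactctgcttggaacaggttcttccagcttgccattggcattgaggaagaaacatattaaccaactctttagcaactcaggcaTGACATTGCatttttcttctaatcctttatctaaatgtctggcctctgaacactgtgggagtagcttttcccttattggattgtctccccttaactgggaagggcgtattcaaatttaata
Gclm: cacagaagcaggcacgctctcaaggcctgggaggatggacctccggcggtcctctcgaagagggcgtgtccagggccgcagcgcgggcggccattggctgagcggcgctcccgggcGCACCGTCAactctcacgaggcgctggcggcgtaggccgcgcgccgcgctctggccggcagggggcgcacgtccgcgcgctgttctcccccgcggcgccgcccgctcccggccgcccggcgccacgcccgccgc
Nfe2l2: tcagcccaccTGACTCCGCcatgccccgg
Txnrd1: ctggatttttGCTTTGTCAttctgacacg
Sod1: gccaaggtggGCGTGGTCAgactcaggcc
The core began 121 bases before the start site in Gsta3 and lay on the strand of the gene, as it did in Nfe2l2 at 240 bases. In Gclm (134 bases), Txnrd1 (92 bases) and Sod1 (56 bases) it lay on the other strand. Only 1 of the 3 Txnrd1 promoters held it, and none of the 5 Nfe2l1 promoters nor the single entries of Nqo1 and Sod2 did. A match is a description of these letters and not of binding, and no match covers only this window.

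In adipocyte nuclei, 5 of the 10 genes were at least 2-fold higher in KO than in WT as counted (Gsta3, Nqo1, Hmox1, Gclm and Nfe2l1), and 0 were at least 2-fold lower. Of the 14651 genes that reached 50 UMIs in this class over both libraries, 18.5% were at least 2-fold higher and 18.2% at least 2-fold lower. The median log2 KO/WT ratio of the 10 genes was 1.00, against 0.05 for all those genes. Nqo1 reached 50 UMIs mainly through KO, with 11 UMIs in WT and 41 in KO. At a minimum of 200 UMIs, 4 of the 9 genes left were at least 2-fold higher. Relative to endothelial nuclei, 4 of the 9 genes with 50 UMIs in both classes (Gsta3, Hmox1, Gclm and Nfe2l1) were at least 2-fold higher and 0 lower, and the median was 0.79. The background on that scale was 16.5% higher and 5.93% lower over 11541 genes, with a median of 0.20. All 9 ratios lay above 0 on the relative scale, where the median of all genes also did, and 8 of 10 did as counted. The lowest relative ratios, those of Txnrd1 and Gclc, were above those of 56.3% and 57.6% of genes. The superoxide dismutases were the pair below 0 as counted.

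**Figure D1:**
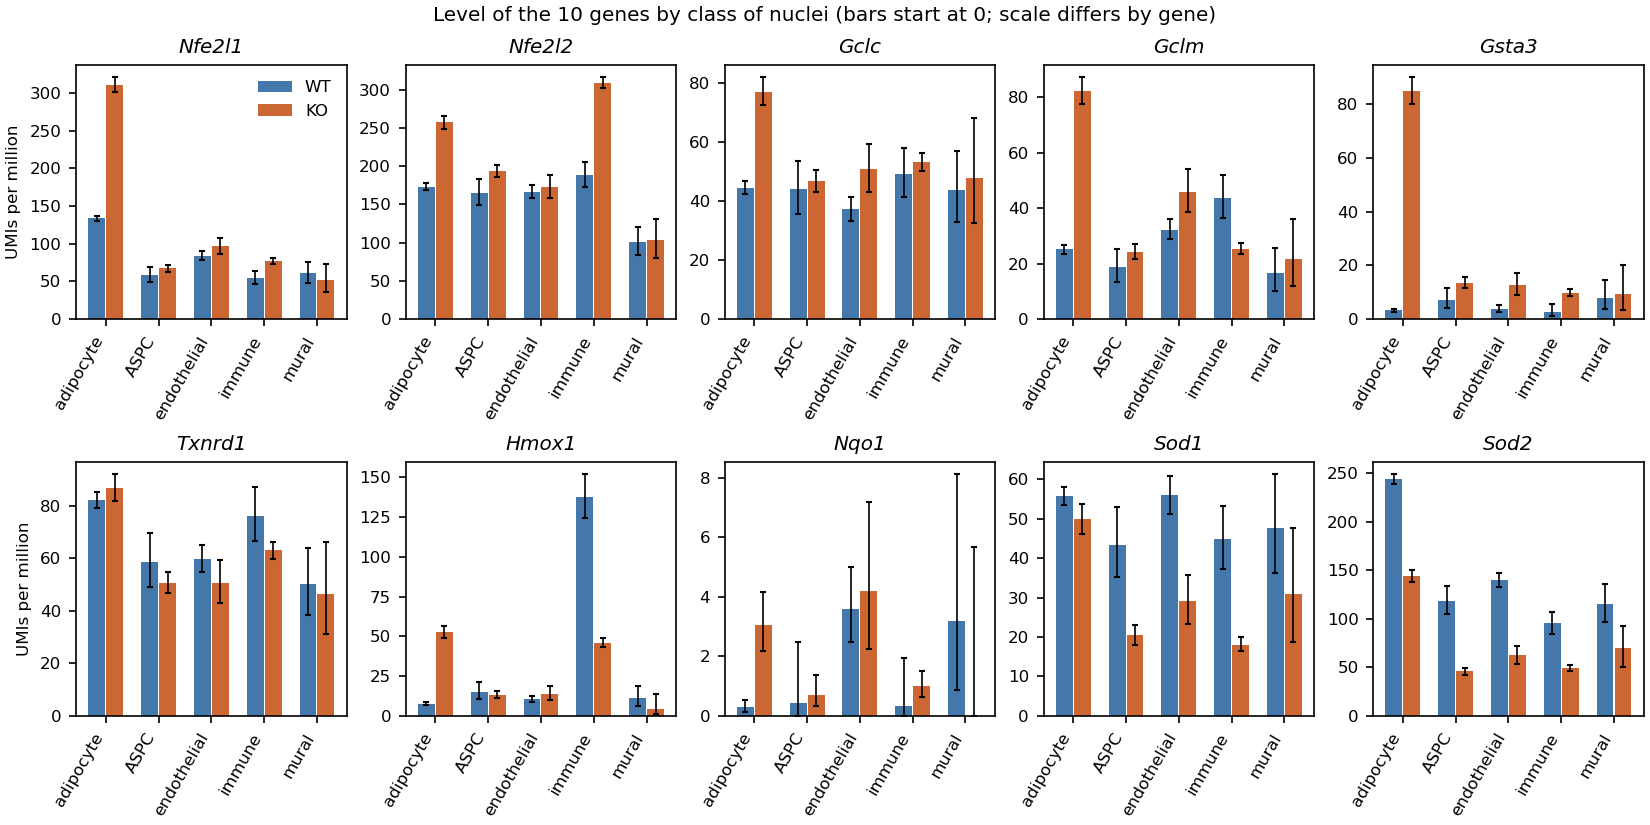
CPM (y axis, from 0, with a scale of its own for each gene) of the 10 genes in 5 classes of nuclei (x axis), WT in blue and KO in orange, 1 library each, with exact 95% Poisson intervals of the counts. The KO bar of Gsta3 stands out in adipocyte nuclei at 84.8 and the WT bar of Hmox1 in immune nuclei at 138. Sod1 and Sod2 are lower in KO in every class, within counting error for Sod1 in mural nuclei.

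NRF1 and NRF2 are the factors of the pathway. Nfe2l1 (ENSMUSG00000038615, chromosome 11 of GRCm38, 96817414 to 96829968, minus strand) had 4997 UMIs in WT and 4168 in KO adipocyte nuclei, or 134 (130 to 137) and 311 (302 to 321) CPM. That is a 2.33-fold higher level in KO, with a log2 ratio of 1.22 (1.16 to 1.28). The 4 other classes held less of it, between 54.2 and 84.0 CPM in WT and between 52.5 and 96.5 in KO, with log2 ratios from -0.22 in mural to 0.51 in immune nuclei. Relative to endothelial nuclei its level in adipocyte nuclei was 1.59 times in WT and 3.23 times in KO, a log2 ratio of 1.02 (0.82 to 1.22). That interval runs to both sides of 2-fold, and centred on the median of all genes the ratio was 0.82.

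Nfe2l2 (ENSMUSG00000015839, chromosome 2, 75675513 to 75704641, minus strand) had 6480 and 3444 UMIs in WT and KO adipocyte nuclei, or 173 and 257 CPM. Its log2 ratio was 0.57 (0.51 to 0.63) as counted and 0.52 (0.37 to 0.67) relative to endothelial nuclei, under 2-fold on both scales. Immune nuclei showed a ratio of similar size: 188 CPM in WT and 309 in KO, or 0.71 (0.59 to 0.84). ASPCs had a smaller ratio, at 165 and 193 CPM, or 0.22 (0.06 to 0.39). Endothelial (167 and 173 CPM) and mural nuclei (101 and 103 CPM) held nearly the same level in both libraries, within counting error. NRF2 is regulated mainly by protein stability, which RNA does not measure.

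The genes whose levels followed these factors most closely over 5 classes in 2 libraries were, for Nfe2l1, Pla2g12a (r = 0.99), Kif1c (0.99) and Tgoln1 (0.98), and for Nfe2l2, Zfp780b (0.96), Smarca4 (0.93) and Ttf2 (0.93). These are Pearson correlations of log2(CPM + 1) over 10 points that share libraries, ranked among 11188 genes, and no gene of the pathway lists below was among them.

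Glutathione is made in a first step by glutamate-cysteine ligase, of which Gclc encodes the catalytic and Gclm the modifier subunit. Gclc (ENSMUSG00000032350, chromosome 9, 77754535 to 77794485, plus strand) had 1665 UMIs in WT and 1030 in KO adipocyte nuclei, or 44.5 and 76.9 CPM, a log2 ratio of 0.79 (0.68 to 0.90). It was also higher in KO endothelial nuclei (37.1 to 50.7 CPM), so that its relative ratio in adipocyte nuclei was 0.34 (0.05 to 0.63), and 1.12 in nuclei of 4000 to 8000 UMIs. Gclm (ENSMUSG00000028124, chromosome 3, 122245557 to 122270732, plus strand) had 943 and 1100 UMIs, or 25.2 and 82.2 CPM, a 3.26-fold higher level in KO with a log2 ratio of 1.70 (1.58 to 1.83). In WT, adipocyte nuclei held less Gclm than endothelial nuclei (0.78 times), and in KO more (1.79 times), a relative log2 ratio of 1.20 (0.88 to 1.51). It was 0.38 when nuclei of 4000 to 8000 UMIs alone were used, an alternative chosen after seeing the data, in which the ratio as counted was 1.41. Immune nuclei went the other way, from 43.7 to 25.4 CPM, with a log2 ratio of -0.78 (-1.07 to -0.49). Gclc in immune nuclei had a ratio of 0.12 (-0.13 to 0.38) as counted and -0.33 (-0.70 to 0.04) relative to endothelial nuclei, with both intervals across 0. The modifier subunit thus had opposite signs in adipocyte and immune nuclei on both scales.

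Gsta3 (ENSMUSG00000025934, chromosome 1, 21240589 to 21265661, plus strand), a glutathione S-transferase that conjugates electrophiles to glutathione, had the largest ratio as counted of the 10 genes. Its UMIs in adipocyte nuclei numbered 121 (WT) and 1135 (KO), which is 3.24 (2.68 to 3.87) and 84.8 (79.9 to 89.9) CPM, a 26.2-fold higher level with a log2 ratio of 4.71 (4.44 to 4.99). This ratio was above that of 98.9% of the genes compared. The WT level did not exceed that of WT endothelial nuclei (0.83 times), while the KO level was 6.73 times that of KO endothelial nuclei, giving a relative log2 ratio of 3.03 (2.32 to 3.73), or 2.13 when levels were averaged over nuclei. The gene was also higher in KO endothelial (3.91 to 12.6 CPM) and immune nuclei (2.80 to 9.83 CPM), far below KO adipocyte nuclei, and adipocyte nuclei held 47.4% of all its KO UMIs. Adipocyte RNA found in those classes and a change of their own cannot be told apart there.

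A Gsta3 UMI was found in 1.72% (1.36 to 2.14, exact binomial interval) of WT adipocyte nuclei, whose median depth was 6827.5 UMIs, and in 26.3% (24.3 to 28.4) of KO ones, at 6194 UMIs. With each nucleus thinned to 1000 UMIs the shares were 0.302% and 6.13%, leaving out 52 WT and 10 KO nuclei. Endothelial nuclei, read as a gauge of adipocyte RNA in other classes, gave 0.913% and 2.41% at median depths of 2302 and 2154 UMIs. When thinned they gave 0.244% and 0.894%, with 116 and 74 left out. The transcript was unevenly spread in KO. If every KO adipocyte nucleus had held it in proportion to its depth, 42.7% would have had a UMI, and the tenth of nuclei with most of it held 67.9% of its UMIs. Gsta3 belongs to a family of similar genes, so reads shared with its relatives may be missing from the count.

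Txnrd1 (ENSMUSG00000020250, chromosome 10, 82833951 to 82897712, plus strand), the cytosolic thioredoxin reductase and a known NRF2 target, had 3073 UMIs in WT and 1163 in KO adipocyte nuclei, or 82.2 and 86.9 CPM. Its log2 ratio was 0.08 (-0.02 to 0.18) as counted and 0.32 (0.04 to 0.59) relative to endothelial nuclei. The other classes held between 50.02 and 76.3 CPM in WT and between 46.3 and 63.0 in KO, with ratios from -0.28 to -0.11. Both intervals lay below those of Gsta3 and Gclm on the same scale, but in nuclei of 4000 to 8000 UMIs the relative ratio of Txnrd1 was 0.81 and that of Gclm 0.38.

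Haem oxygenase 1, encoded by Hmox1 (ENSMUSG00000005413, chromosome 8, 75093621 to 75100589, plus strand), breaks down haem to biliverdin, iron and carbon monoxide and is abundant in macrophages that take up red cells. It had 286 UMIs in WT and 704 in KO adipocyte nuclei, or 7.65 (6.79 to 8.59) and 52.6 (48.8 to 56.6) CPM, a 6.88-fold higher level and a log2 ratio of 2.78 (2.58 to 2.99). Endothelial nuclei had 10.5 and 13.9 CPM, so the relative log2 ratio was 2.37 (1.82 to 2.93), above that of 98.0% of genes. In immune nuclei the order was reversed: 394 WT and 1063 KO UMIs gave 138 (125 to 152) and 46.0 (43.3 to 48.9) CPM, a log2 ratio of -1.58 (-1.75 to -1.41). ASPCs had 15.2 and 13.5 CPM, within counting error. In KO the adipocyte and immune levels thus lay close, whereas in WT the immune level was far above all others.

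The share of adipocyte nuclei with a Hmox1 UMI was 4.401% (3.82 to 5.04) in WT and 18.0% (16.3 to 19.9) in KO, and 0.809% and 4.02% after thinning, against thinned shares of 1.18% and 1.19% in endothelial nuclei. Immune markers were compared between adipocyte nuclei with and without Hmox1, though the class rule had left out nuclei with 10 or more immune marker UMIs per 10000. In WT the 200 adipocyte nuclei with Hmox1 had 2.84 immune marker UMIs per 10000, against 0.749 in the 4344 without. In KO the 327 nuclei with Hmox1 had 1.89, against 1.75 in the 1488 without, and immune nuclei had 69.1. Among the nuclei that the rule admitted, immune markers were higher beside Hmox1 in WT and nearly level in KO. The KO nuclei with Hmox1 also held more Gsta3 (115 against 74.6 CPM) and Gclm (119 against 69.9 CPM) than those without, at median depths of 8303 and 5798.5 UMIs, while Nfe2l2 was at 274 and 252 CPM. In WT the order was the other way, at 2.55 against 3.30 CPM for Gsta3, from 8 UMIs in the nuclei with Hmox1, and 23.6 against 25.4 CPM for Gclm. Nuclei of 1 library are not replicates, and these values describe that library.

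Nqo1 (ENSMUSG00000003849, chromosome 8, 107388225 to 107403206, minus strand), the quinone reductase often used as a readout of NRF2, was scarce. Its UMIs in adipocyte nuclei were 11 (WT) and 41 (KO), which is 0.294 (0.147 to 0.526) and 3.06 (2.20 to 4.15) CPM, a 10.4-fold higher level with a log2 ratio of 3.38 (2.39 to 4.49). The KO level was no higher than the 3.60 and 4.197 CPM of WT and KO endothelial nuclei, from 34 and 13 UMIs, so the gene was too scarce there for the relative scale. Immune nuclei had 1 and 23 UMIs and mural nuclei 4 and 0. A Nqo1 UMI was seen in 2.04% (1.44 to 2.80) of KO adipocyte nuclei and in 0.242% (0.121 to 0.433) of WT ones, and in 1.17% of WT endothelial nuclei, which reach a median of only 2302 UMIs.

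The superoxide dismutases turn superoxide into hydrogen peroxide, SOD1 in the cytosol and SOD2 in the mitochondrial matrix. Sod1 (ENSMUSG00000022982, chromosome 16, 90220754 to 90226329, plus strand) had 2084 UMIs in WT and 668 in KO adipocyte nuclei, or 55.7 and 49.9 CPM, a log2 ratio of -0.16 (-0.29 to -0.03). Outside adipocytes it was lower by more, at 43.5 and 20.5 CPM in ASPCs and 55.9 and 29.1 in endothelial nuclei. Immune nuclei had 44.8 and 18.1 CPM and mural nuclei 47.6 and 30.9. The log2 ratios of these classes were -1.09, -0.94, -1.31 and -0.63. The mural ratio rested on 60 and 20 UMIs, and its interval of -1.43 to 0.13 ran across 0. The WT level of Sod1 was nearly flat over the classes. Adipocyte nuclei held 1.00 times the endothelial level in WT and 1.72 times in KO, a relative log2 ratio of 0.79 (0.44 to 1.13), and 0.33 in nuclei of 4000 to 8000 UMIs.

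Sod2 (ENSMUSG00000006818, chromosome 17, 13006846 to 13040063, plus strand) had 9124 and 1925 UMIs in adipocyte nuclei, or 244 and 144 CPM, a log2 ratio of -0.76 (-0.83 to -0.69). It was lower in KO in the other classes too, with log2 ratios of -1.37 (-1.58 to -1.16) in ASPCs, -1.17 (-1.39 to -0.95) in endothelial, -0.95 (-1.15 to -0.76) in immune and -0.73 (-1.24 to -0.24) in mural nuclei. The adipocyte level was 1.74 times the endothelial one in WT and 2.31 times in KO, a relative log2 ratio of 0.40 (0.17 to 0.63). So the sign of both dismutases in adipocyte nuclei turned with the scale. The higher mitochondrial share and the higher adipocyte marker sum in endothelial nuclei of the WT library, given above, move with these values, and their part in them was not tested.

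**Figure D2:**
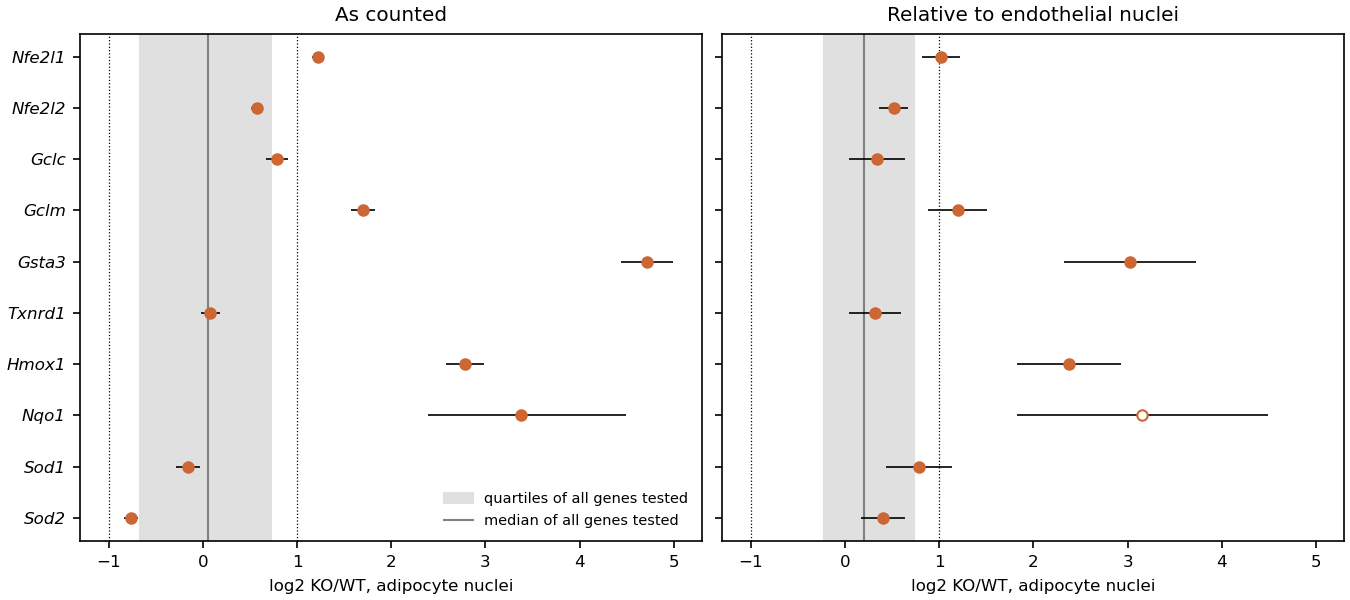
Log2 KO/WT ratio in adipocyte nuclei (x axis) of each of the 10 genes (y axis), as counted on the left and relative to endothelial nuclei on the right, with 95% intervals, dotted lines at 2-fold, and the median and quartiles of all genes compared in grey. Gsta3, Hmox1, Gclm and Nfe2l1 lie past 2-fold higher on both scales, Sod1 and Sod2 change side, and the open point (Nqo1) had fewer than 50 endothelial UMIs.

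The other classes were read in the same way. In ASPCs, 0 of the 9 genes with 50 UMIs were at least 2-fold higher (background 5.95%) and 2 were lower (11.3%), which were Sod1 and Sod2. In endothelial nuclei, of 9 genes, Gsta3 was at least 2-fold higher (4.32% of all genes) and Sod2 was lower (15.8%). In immune nuclei, of 9 genes, 1 was at least 2-fold higher (6.91%), Gsta3 from 8 and 227 UMIs, and 2 were lower (11.3%), Hmox1 and Sod1. The lower calls outside adipocytes were few, and on the relative scale no dismutase was among them. In mural nuclei, 0 of 6 genes were past 2-fold in either direction, where 4.43% of genes were higher and 12.2% lower. Set against endothelial nuclei, 0 of the 9 genes in ASPCs passed 2-fold (5.68% higher and 4.07% lower) and 0 of 6 in mural nuclei (4.91% and 4.74%). In immune nuclei, 0 of 9 were higher on that scale (7.54%), and Hmox1 at -1.99 (-2.53 to -1.45) and Gclm at -1.29 (-1.69 to -0.89) were lower (5.19%). The difference between classes was not tested, as each rests on the same pair of libraries.

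The immune class changed in makeup between the libraries, so Hmox1 was followed within it. Resident macrophages, called by their own markers, numbered 439 in WT and 2383 in KO, macrophages with Gpnmb 22 and 603, and T or NK lymphocytes 20 and 63. In resident macrophages Hmox1 had 302 and 707 UMIs, or 128 and 49.8 CPM, a log2 ratio of -1.36 (-1.56 to -1.16). The few WT Gpnmb macrophages held 32 UMIs, 239 (163 to 337) CPM, against 168 UMIs and 42.7 (36.5 to 49.7) CPM in KO. Lymphocytes held 0 UMIs in WT and 1 in KO. The lower KO level was therefore also found within resident macrophages and within nuclei called Gpnmb macrophages. Gpnmb itself was not confined to immune nuclei in KO, at 246 CPM in adipocyte against 322 in immune nuclei (4.28 and 172 in WT). Whether free RNA added to that call was not tested. Gclm in resident macrophages went from 42.0 to 25.6 CPM (-0.71, -1.04 to -0.38) and Nfe2l2 from 185 to 289 CPM (0.64, 0.50 to 0.79). The factor and this target thus had opposite signs in the same macrophages, as they did over all immune nuclei.

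**Figure D3:**
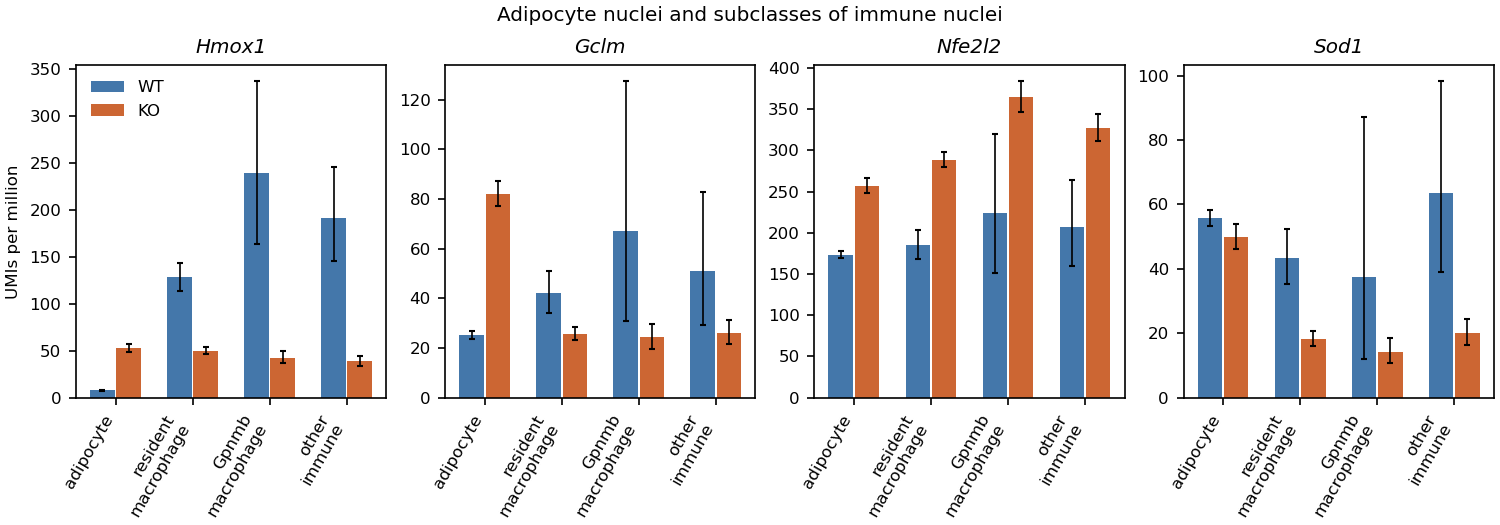
CPM (y axis, from 0) of Hmox1, Gclm, Nfe2l2 and Sod1 in adipocyte nuclei and in 3 groups of immune nuclei (x axis), WT in blue and KO in orange, 1 library each, with exact 95% Poisson intervals. Hmox1 is higher in KO adipocyte nuclei (7.65 against 52.6) and lower in KO resident macrophages (128 against 49.8), and the WT Gpnmb macrophages are only 22 nuclei.

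Over all nuclei, with or without a class, the level joins the makeup of the tissue with the level in each class. Hmox1 was at 16.9 CPM in WT and 41.5 in KO, a log2 ratio of 1.29 (1.20 to 1.39), while WT class levels combined with the KO shares of UMIs would alone give 1.66. Nfe2l1 had a ratio of 0.38 (0.34 to 0.42), where the shares alone give -0.40. Gsta3 had 3.12 (2.95 to 3.30) against 0.11 from the shares, and Sod2 -1.34 (-1.39 to -1.30) against -0.39. For Hmox1 a total over the tissue thus hides opposite differences in adipocyte and immune nuclei.

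Other genes of the pathway were read from 6 lists holding 107 genes, none of them among the 10. The regulators around NRF1 and NRF2 held 14 genes, of which 5 were at least 2-fold higher in KO adipocyte nuclei and 0 lower as counted (18.5% and 18.2% of all genes), with a median log2 ratio of 0.42. The highest were Sqstm1 at 1.55 (81.2 to 238 CPM), whose product p62 draws KEAP1 into autophagy, and Mafk at 1.53 (4.25 to 12.2 CPM) and Mafg at 1.51 (65.1 to 185 CPM), small MAF partners of the factors. Relative to endothelial nuclei Mafk was at 1.28, while Sqstm1 at 0.95 and Mafg at 0.87 were under 2-fold. The lowest were Ngly1 at -0.77, a deglycosylase that acts on NRF1, Nfe2l3 at -0.58, another factor of the family, and Bach1 at -0.09, a repressor of Hmox1. The sign of the latter pair turned relative to endothelial nuclei, to 2.83 for Nfe2l3 and 0.23 for Bach1. For Nfe2l3 this came from a lower KO level in endothelial nuclei. Its adipocyte level itself went from 6.93 to 4.63 CPM, from 259 and 62 UMIs. On the relative scale 3 of the 14 were at least 2-fold higher and 0 lower (16.5% and 5.93%).

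Glutathione synthesis and use held 24 genes, 4 of them at least 2-fold higher and 4 lower, near the 18.5% and 18.2% of all genes, with a median of -0.22. Gsr, the reductase that regenerates glutathione, had a ratio of 1.81 (30.4 to 106 CPM) and 1.70 relative to endothelial nuclei. Slc7a11, the cystine importer, had 1.68 (3.48 to 11.1 CPM) and Gstp1, a transferase, 1.44 from 37 and 36 UMIs. Gpx3, the secreted glutathione peroxidase, was the lowest at -3.35 (63.3 to 6.20 CPM), with Glrx at -1.36 and Gpx8 at -1.22. Relative to endothelial nuclei Gpx3 was at -1.17, while Glrx and Gpx8 turned to 0.49 and 0.34. On that scale 5 of 16 were at least 2-fold higher and 1 lower (16.5% and 5.93% of all genes), and the median turned to 0.51.

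Thioredoxins and peroxiredoxins, 15 genes with a median of 0.16, held 1 gene at least 2-fold higher, Sesn2 at 1.55, and 0 lower (18.5% and 18.2% of all genes). Srxn1, sulfiredoxin, was at 0.86 and Prdx6 at 0.73, and the lowest were Prdx2 at -0.89, Txnip at -0.77 and Txn2 at -0.69. Relative to endothelial nuclei Sesn2, Srxn1 and Prdx6 were at 1.39, 0.72 and 1.22. Prdx2 and Txnip were at -0.40 and -0.02 on that scale, and Txn2 turned to 0.24. Of the 7 genes for superoxide, peroxide and repair, 0 were at least 2-fold higher and 1 was lower, against the same shares of all genes. That was Oxr1 at -1.48, followed by Msra at -0.47 and Ccs, the copper chaperone of SOD1, at -0.21. The highest of them were Msrb1 at 0.61, Sod3 at 0.36 and Cat, catalase, at 0.34. On the relative scale 3 of 15 and 1 of 7 were at least 2-fold higher, and 0 of either list were lower. Of all genes, 16.5% were higher and 5.93% lower on that scale.

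Quinone, haem, iron and NADPH genes, 16 with a median of 0.32, held 5 at least 2-fold higher and 2 lower (18.5% and 18.2% of all genes). Ephx1, the microsomal epoxide hydrolase, had 115 WT and 680 KO UMIs (3.07 and 50.8 CPM), a log2 ratio of 4.05 (3.76 to 4.34) and of 3.85 relative to endothelial nuclei. Me1, the malic enzyme that makes NADPH, went from 201 to 674 CPM (1.75) and Ugdh from 10.4 to 27.9 (1.42). Fth1, ferritin heavy chain, was lower at -1.27, Nqo2 at -1.14 and Hmox2 at -0.47. With endothelial nuclei as reference 4 of the 16 were at least 2-fold higher and 0 lower (16.5% and 5.93%).

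The proteasome is the known target of NRF1. Of its 31 subunits 1 was at least 2-fold higher, Psma2 at 1.49 (39.5 to 110.5 CPM), and 1 lower, Psmb6 at -1.16, where 18.5% and 18.2% of all genes were, and the median was 0.02 against 0.05 for all genes. Psma5 was at 0.58 and Psmd14 at 0.48, and Psmd6 at -0.92 and Psmb4 at -0.56. On the relative scale 1 of 31 was at least 2-fold higher and 0 were lower (16.5% and 5.93% of all genes), and the median was 0.18 against 0.20 for all genes. The subunits thus lay close together, with a median near that of all genes on both scales.

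**Figure D4:**
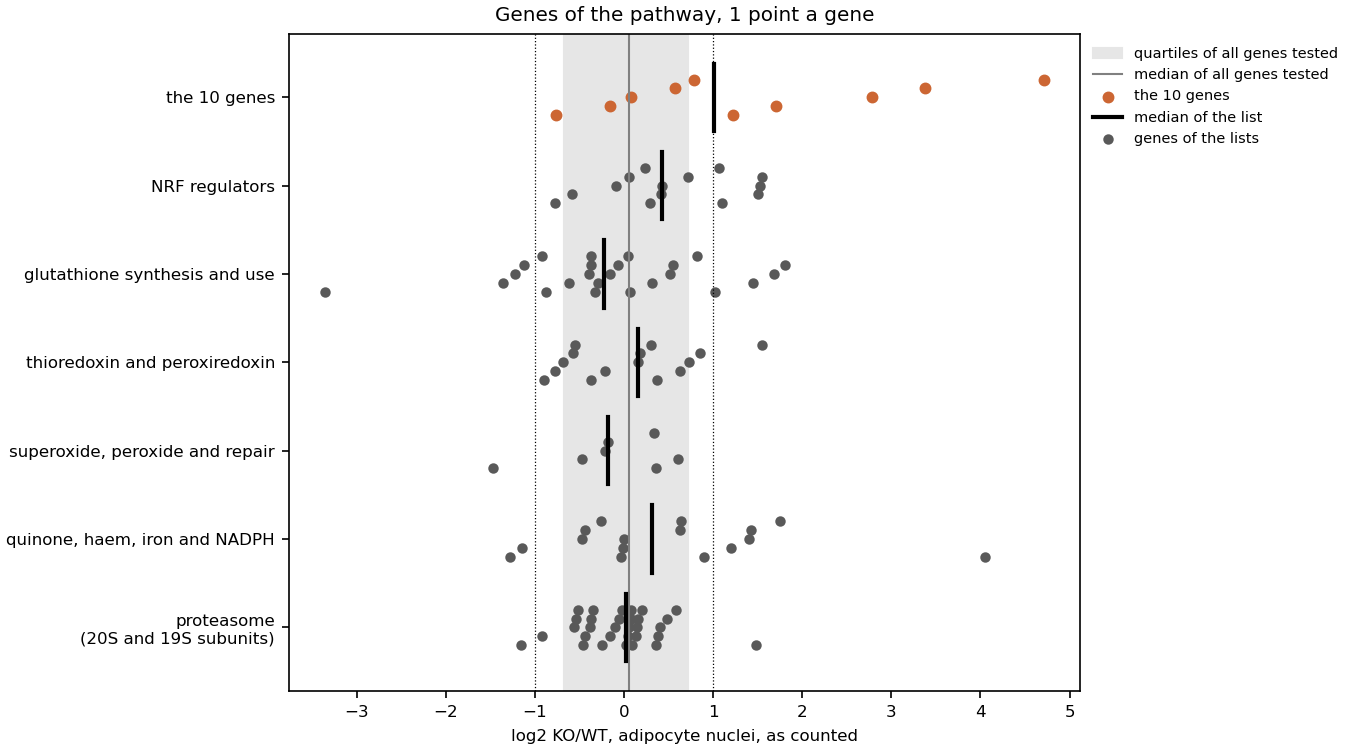
Log2 KO/WT ratio in adipocyte nuclei as counted (x axis) of the 10 genes and of the 6 pathway lists (y axis), 1 point a gene, with a black bar at each list's median, dotted lines at 2-fold and the median and quartiles of all genes compared in grey. The 10 genes have a median of 1.00, the proteasome points crowd around 0.02, and Gpx3 at -3.35 and Ephx1 at 4.05 are the far points of their lists.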

How the data were processed

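Single-nucleus libraries were made with 10x Genomics 3′ chemistry. The deposited values are UMI counts of each gene in each nucleus, which the authors aligned with STAR to GRCm38 (mm10 in the submitters' notes) and counted with Cell Ranger, without normalization. The submitters' notes name version 5.0.0 and the methods an earlier one. Whether intronic reads were counted is not given in the sources used here. The files held 24341 barcodes, 12846 WT and 11495 KO, with 93102814 and 80090208 UMIs.

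Of these, 12771 and 11378 were kept (200 or more genes, no more than 10% mitochondrial UMIs, and log UMIs and log genes no further than 3 median absolute deviations from the library's median). A nucleus was put in a class other than adipocyte when that class's markers summed to at least 30 per 10000 UMIs and 5 UMIs. That sum also had to be at least 2 times that of the next class other than adipocyte, with no limit on adipocyte markers. A nucleus was put in the adipocyte class when adipocyte markers summed to at least 40 per 10000 and every other class to under 10. This scoring rule was settled on the data, and 1030 WT and 627 KO nuclei lay within 10% of a limit. Subclasses of immune nuclei needed 2 marker UMIs and 2 times the next. UMIs were summed per class and library and divided by the total (CPM). Genes were compared with at least 50 UMIs over both libraries. Intervals were exact Poisson for levels, exact binomial (Clopper-Pearson) for shares, conditional binomial for ratios and a log-normal approximation from 4 counts for relative ratios. A count of 0 was replaced by a floor of 3 counts in ratios. Shares after thinning are expected values over draws of 1000 UMIs. Doublets were not removed in the main analysis, and Scrublet scores were used in an alternative. The ratio step was tested on simulated data. Gene places are from GENCODE M21 (release 21) of GRCm38. The genes overlap Gm17494 (Gclm), Gm28836 (Gsta3), Gm38560 and Eid3 (Txnrd1) and Scaf4 (Sod1). Whether the count used strand is not given in the sources used here, so reads in those stretches are uncertain.

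The members, lists, markers and tests were chosen with earlier results of these data known. The text names the 10 genes, Srsf1, marker genes, the 3 highest and 3 lowest of each list by log2 ratio in adipocyte nuclei, and the 3 genes most like Nfe2l1 and Nfe2l2. Ucp1 was added after its values were seen. Tools were Python 3.11.15, numpy 2.4.6, scipy 1.17.1, pandas 2.3.3, scanpy 1.11.5, anndata 0.12.19 and matplotlib 3.10.9.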

Additional observations from a re-analysis of the deposited data

Results flagged for a closer look

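Hmox1 had opposite signs in adipocyte nuclei (log2 KO/WT ratio 2.78) and immune nuclei (-1.58), with both intervals away from 0. Gclm did so as well, at 1.70 and -0.78. The difference between the classes was not tested, since there is 1 library per genotype.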

How the results depend on the processing

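With 1 library per genotype the spread between animals is unknown, and the endothelial reference holds adipocyte RNA in amounts that differ between the libraries. Whether that RNA is free or comes from doublets was not tested. Over the alternatives, 188 of 190 values of single genes in adipocyte nuclei kept the sign of the main value and 180 stayed on the same side of 2-fold. The 2 exceptions in sign, Nfe2l2 and Sod2, were under 2-fold on the relative scale (-0.14 with immune nuclei as reference and -0.35 with the endothelial level subtracted), but with the endothelial level subtracted Nfe2l2, whose level lay near the endothelial one in WT, was at 3.70. The median ratio of the genes as counted moved from 1.00 to 0.82 under fixed limits on genes and mitochondrial UMIs and to 0.84 under a stricter margin of marker sums, where Nqo1 had too few UMIs and 9 genes were left. Relative to endothelial nuclei it moved from 0.79 to 0.53 without a margin, 0.59 when centred on the median of all genes, 1.83 with the endothelial level subtracted, where 5 genes could be computed, and 0.56 in nuclei of 4000 to 8000 UMIs. The number of genes at least 2-fold higher on that scale fell from 4 to 2 when centred, at a minimum of 200 UMIs and in nuclei of 4000 to 8000 UMIs, with 7 genes compared in the latter pair, where Gsta3 and Hmox1 had too few endothelial UMIs. The 2 were Gsta3 and Hmox1 when centred, Nfe2l1 and Gclm at 200 UMIs, and Nfe2l1 and Gclc in nuclei of 4000 to 8000 UMIs. The relative ratios of Gclm, Sod1 and Gclc were 0.38, 0.33 and 1.12 in nuclei of 4000 to 8000 UMIs, that of Hmox1 ranged from 1.34 to 4.36, and that of Gsta3 was 2.13 with the mean over nuclei. Restricting the depth and leaving out shared barcodes were chosen after seeing the data. The other counts and medians stayed within 1.5 times or within their intervals, and the numbers of genes at least 2-fold lower stayed at 0. No paired analysis was possible because each genotype has 1 library.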
